A study of Mus musculus with 6 samples.

Results

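The genes described here are 39 genes of glycolysis and of the response to low oxygen, followed in blood progenitors of mice that carry the NHD13 transgene. They were listed by name: 18 glycolytic enzymes, 3 transporters of glucose or lactate, 4 subunits of the hypoxia-inducible factors (HIF), 5 oxygen sensors and regulators of HIF, and 9 HIF target genes. Of the 39, 36 had a probe on the array whose annotation gave their symbol, and 30 were bright enough to be tested, among 9000 tested genes in all. Where several probes of a gene were detected, the brightest one on average stands for the gene.

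RNA came from Lineage negative Kit positive (LK) cells, a progenitor-rich part of the bone marrow, purified by flow cytometry. Of 6 bead arrays, 3 held RNA of NHD13 transgenic mice and 3 held RNA of wild type littermates, all 3 months old, and each array stood for a pool of 3 mice. The NHD13 transgene encodes NUP98-HOXD13, a fusion protein known from human myeloid disease. The labels give no strain, sex or promoter of the transgene, and the pools hide the spread between single mice. Kit itself was bright in both genotypes, at 12.60 in NHD13 and 12.82 in wild type cells (mean log2 intensity, adjusted p = 0.78).

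Glycolysis splits glucose into pyruvate, and lactate dehydrogenase turns pyruvate into lactate when cells ferment. When oxygen is short, prolyl hydroxylases of the Egln family stop marking the HIF alpha subunits for the Vhl ubiquitin ligase, and the stabilised factor raises transcription of glucose transporters, glycolytic enzymes and other targets. Blood stem cells in the marrow are known for a strong use of glycolysis, and Hif1a is known to help keep them quiescent.

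Of the 30 tested genes, 1 differed between the genotypes past the threshold, an adjusted p under 0.05 in limma's moderated test over all probes. With pools as replicates, the p-values measure the spread between pools. Ndrg1, a stress-responsive gene that low oxygen induces in many cells, fell 3.28-fold in NHD13 cells. No glycolytic enzyme and no transporter passed, and the enzyme genes Ldha, Gapdh and Tpi1 differed by less than 0.05 on the log2 scale. Hif3a, an alpha subunit whose short forms restrain HIF, measured 3.29-fold higher, and Egln3, a sensor that is itself a HIF target, measured 2.49-fold lower, but neither passed the adjusted threshold. Limma called 1 of the 30 tested genes at an adjusted p under 0.05, against 0.556% of all tested genes, and 0.356% of all tested genes were called lower. At an unadjusted p under 0.05 there were 3, Ndrg1, Hif3a and Egln3, where 7.67% of all tested genes reached that level. The groups did not overlap in 2 of the 30, Ndrg1 and Egln3, against 12.5% of all tested genes.

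**Figure D1:**
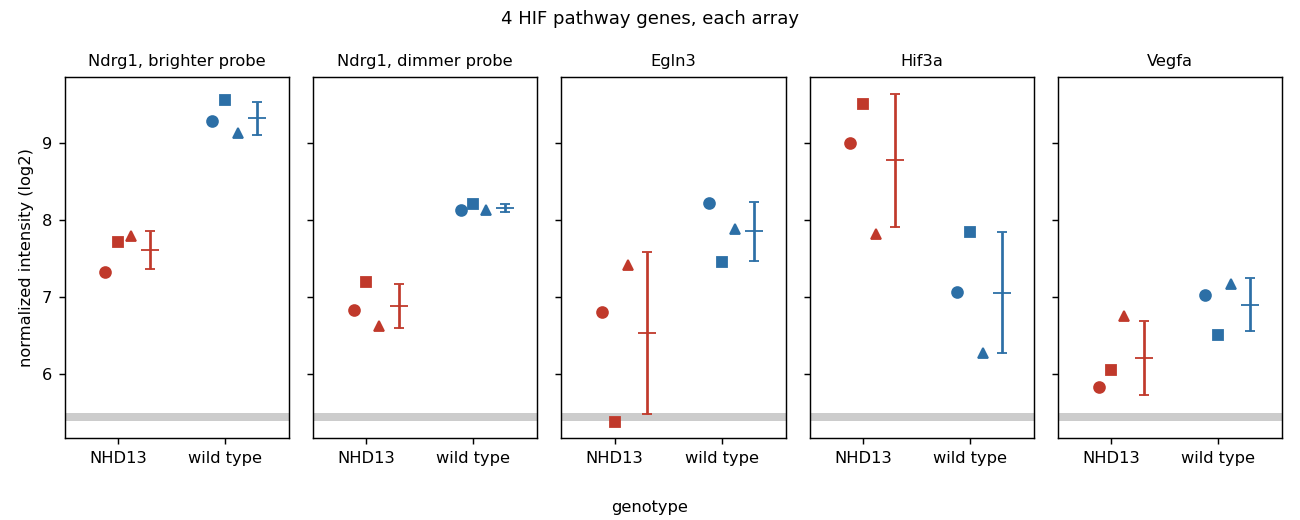
Normalized intensity (log2) of 4 HIF pathway genes on each array, with NHD13 arrays in red left of wild type arrays in blue, circles, squares and triangles marking the arrays numbered 1, 2 and 3, bars showing mean and SD, and a grey band showing the lowest values of detected probes on the 6 arrays. Both Ndrg1 probes separate the genotypes, while Hif3a and Vegfa overlap and Egln3 spans the widest range in NHD13 cells.

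The core of the hypoxia response element, to which HIF binds, is ACGTG or GCGTG. These letters, on either strand, were looked for in the 250 bases before the first listed start of each gene in RefSeq (GRCm38.p6). They stood in 26 of the 35 listed genes that have a promoter entry (74.29%), in 57.35% of the genes tested on the arrays and in 38.6% of all genes of the promoter table. A match describes the letters alone and is no evidence of binding. Of the 7 HIF target genes with an entry 6 held a match, as did 12 of the 18 glycolytic enzymes.

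The promoters of Egln3 and Hif3a are shown because these genes, with Ndrg1, had the largest differences of the HIF pathway genes, in opposite directions. Ndrg1 has no promoter entry, so its promoter is neither counted above nor shown. That of Ldha is shown beside them as a glycolytic HIF target with several matches and almost no difference. Each is written 5′ to 3′ up to the base before the start, with matches in capitals. Adjoining capitals in Ldha include CACGTG, which reads as a match on both strands.
Egln3 (chr12:54203875-54204124, minus strand): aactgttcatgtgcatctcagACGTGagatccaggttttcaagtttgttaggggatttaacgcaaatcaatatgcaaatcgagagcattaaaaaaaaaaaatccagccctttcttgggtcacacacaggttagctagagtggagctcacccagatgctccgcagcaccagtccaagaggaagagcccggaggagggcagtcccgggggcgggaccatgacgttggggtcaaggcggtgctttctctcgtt
Hif3a (chr7:17062428-17062677, minus strand): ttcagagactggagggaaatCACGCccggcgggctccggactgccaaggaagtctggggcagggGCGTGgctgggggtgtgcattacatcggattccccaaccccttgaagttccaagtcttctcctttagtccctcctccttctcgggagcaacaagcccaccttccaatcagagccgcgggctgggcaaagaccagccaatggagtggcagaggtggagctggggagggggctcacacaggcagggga
Ldha (chr7:46845554-46845803, plus strand): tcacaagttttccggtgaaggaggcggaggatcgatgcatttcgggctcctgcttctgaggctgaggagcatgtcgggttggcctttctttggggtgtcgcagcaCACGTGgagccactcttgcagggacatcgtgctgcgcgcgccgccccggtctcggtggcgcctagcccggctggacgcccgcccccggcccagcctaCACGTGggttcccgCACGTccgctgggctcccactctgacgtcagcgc
With -1 as the base before the start, the single match of Egln3 begins at -229 and those of Hif3a begin at -230 and -186. Ldha has 5 matches, and the nearest begins at -34. These promoters were picked by the differences and matches of their genes. Whether a match goes with a difference in expression was not tested.

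Among the HIF subunits, Hif1a, the best known oxygen-regulated alpha subunit, was dim. Its probe measured 5.88, 5.25 and 6.24 on the NHD13 arrays and 5.64, 4.73 and 5.87 on the wild type arrays (log2), and it was detected on 2 arrays of each genotype. With detected probes starting between 5.39 and 5.49, these values lay close to the background, and the groups overlapped (difference 0.38 ± 0.37, SE, n = 3 against 3, limma adjusted p = 0.80). Epas1, the alpha subunit also called HIF-2 alpha, was not well above background on any of the 6 arrays and was not tested. HIF alpha is regulated mainly through protein stability, which RNA does not measure.

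The widest gap among the subunits was that of Hif3a. It measured 8.99, 9.51 and 7.82 in NHD13 cells, against 7.06, 7.84 and 6.27 in wild type cells. NHD13 replicate 3 lay just under wild type replicate 2, so the groups touched, but each NHD13 array was higher than the wild type array of its number, by 1.94, 1.67 and 1.55. The difference was 1.72 ± 0.53 (log2, SE, 95% interval 0.46 to 2.98) with an adjusted p of 0.46 in limma. With the replicate number as a block in the fit, the adjusted p was 0.028, and the HIF pathway genes called were 2 rather than 1. The gene's 2 other tested probes, at 5.25 to 6.28 and 5.32 to 5.86, lay close to the background and were each detected on 5 arrays. They differed by -0.12 and 0.14, and so near the background they cannot show whether the gap holds. Arnt, the partner that all alpha subunits need to bind DNA, averaged 9.62 ± 0.09 in NHD13 and 9.49 ± 0.07 in wild type cells (SD, n = 3 each), a difference of 0.13.

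Of the oxygen sensors and regulators, Egln3 stood apart. It measured 6.81, 5.37 and 7.42 in NHD13 cells, against 8.21, 7.45 and 7.88 in wild type cells. Every NHD13 array was below every wild type array, though by a narrow margin between NHD13 replicate 3 and wild type replicate 2, and the probe was not detected on NHD13 replicate 2. The difference was -1.32 ± 0.51 (SE, 95% interval -2.53 to -0.11, limma adjusted p = 0.62). Leaving out NHD13 replicate 2 gave -0.74, leaving out the pair numbered 2 gave -0.94, and leaving out NHD13 replicate 3 gave -1.76. The 2 other probes of the gene were too dim to test.

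Egln1, the main sensor in most tissues, measured 5.76, 5.05 and 6.26 in NHD13 and 5.44, 6.06 and 5.43 in wild type cells, near the background in both. Its difference was 0.05. Of its dimmer probes, 1 was detected on the 3 NHD13 arrays and on no wild type array. That probe entered the test only through the genotype where it was higher, so its difference of 0.52 is not read as a change. Vhl, which recognises hydroxylated HIF for destruction, was detected on 1 NHD13 array and on 3 wild type arrays. Its values were 5.34, 6.45 and 5.25 in NHD13 and 5.79, 5.69 and 5.60 in wild type cells, with the highest and the 2 lowest of all in NHD13 (difference -0.02, limma adjusted p = 0.99). Egln2, another HIF hydroxylase, averaged 6.98 in NHD13 and 6.78 in wild type cells. Hif1an, an asparagine hydroxylase that blocks HIF from its coactivators, averaged 8.97 in NHD13 and 8.67 in wild type cells, and was higher in NHD13 cells in all 3 pairs of one number, by 0.17 to 0.44, without passing (adjusted p = 0.71).

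Of 9 HIF target genes 7 were tested. Limma called 1 of them, lower in NHD13, where 0.556% of all tested genes were called and 0.356% were called lower. Ndrg1 measured 7.32, 7.72 and 7.79 in NHD13 cells, against 9.28, 9.56 and 9.13 in wild type cells. The lowest wild type array exceeded the highest NHD13 array, and all 6 arrays detected the probe. The difference was -1.71 ± 0.20 (log2, SE, n = 3 against 3, 95% interval -2.18 to -1.25, limma adjusted p = 0.023; 0.038 with the replicate number as a block). A dimmer Ndrg1 probe gave 6.83, 7.19 and 6.63 in NHD13, against 8.13, 8.21 and 8.13 in wild type cells, a difference of -1.27 ± 0.18 that lay just outside the threshold (adjusted p = 0.059).

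The size of the Ndrg1 difference hardly moved when 1 array was left out, but the call did. Leaving out NHD13 replicate 1 gave -1.57 (limma adjusted p = 0.11) and leaving out NHD13 replicate 2 gave -1.77 (0.061). On the wild type side, the values were -1.73 (0.17) with replicate 1 left out, -1.598 (0.083) with replicate 2 left out and -1.81 (0.092) with replicate 3 left out. Of the 6 arrays, NHD13 replicate 3 was the one whose absence kept the call (-1.80, adjusted p = 0.034).

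Vegfa, the gene of the vascular growth factor, measured 5.82, 6.05 and 6.75 in NHD13 cells, against 7.03, 6.51 and 7.16 in wild type cells. NHD13 replicate 3 lay above wild type replicate 2, and the difference of -0.69 ± 0.29 did not pass (SE, limma adjusted p = 0.65). A second tested Vegfa probe, detected on only 3 arrays, differed by -0.63 ± 0.46 (SE). Car9, a carbonic anhydrase widely used as a marker of hypoxia, measured 6.06, 5.68 and 6.89 in NHD13 and 7.39, 6.62 and 5.95 in wild type cells. Its pairs of one number differed by -1.32, -0.94 and 0.94, and its 2 dimmer probes by 0.03 and 0.15.

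Pdk1, a kinase that inhibits pyruvate dehydrogenase in mitochondria, measured 9.80, 10.004 and 9.38 in NHD13 and 9.76, 9.71 and 9.40 in wild type cells, and its difference of 0.10 had a 95% interval of -0.40 to 0.60. Bnip3l, a mitophagy receptor that also clears mitochondria from maturing red cells, averaged 11.32 ± 0.20 in NHD13 and 11.22 ± 0.03 in wild type cells (SD, n = 3 each). Ddit4, an inhibitor of mTORC1, differed by -0.19 and P4ha1, a collagen prolyl hydroxylase subunit, by -0.28. Bnip3 and Ankrd37 were not well above background on any array. The median over the 15 tested HIF pathway genes was 0.05, with 8 above and 7 below 0, beside a median of 0.03 over all tested genes. That median is the value of Egln1, which, like Hif1a and Vhl, lay near the background. With only genes detected on all 6 arrays, the HIF pathway median was 0.10, beside 0.046 over all such genes. Among the 7 targets alone the median was -0.28, with 5 below 0.

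**Figure D2:**
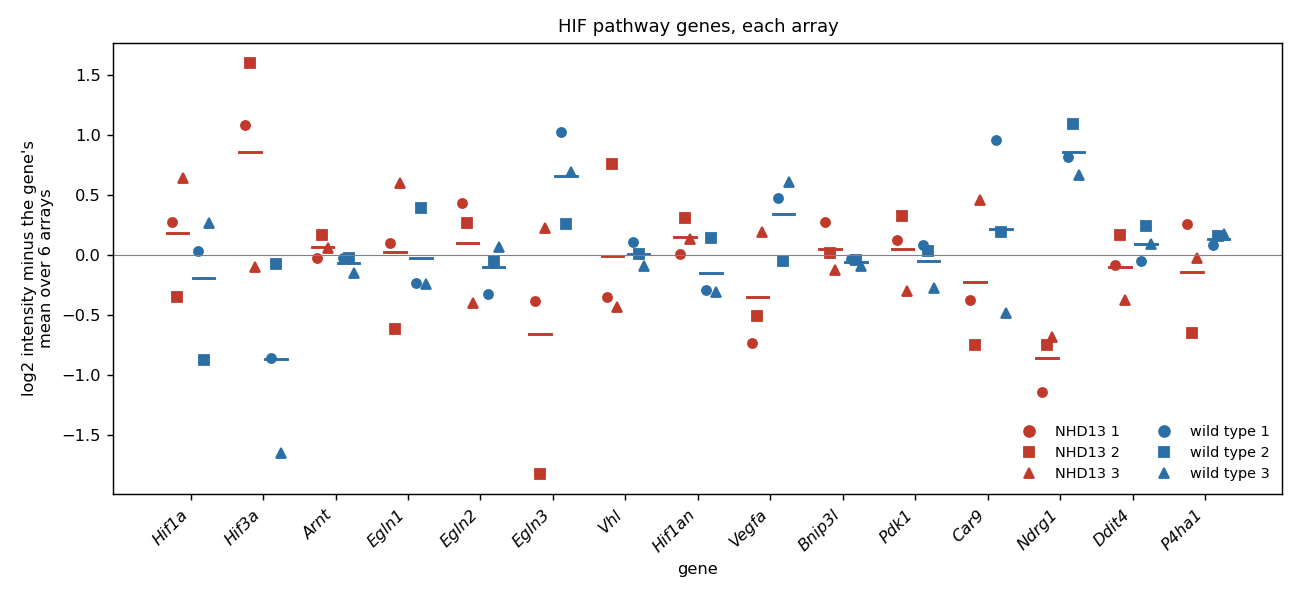
Values of the 15 tested HIF pathway genes on each array, as log2 intensity minus the gene's mean over the 6 arrays, with NHD13 in red left of wild type in blue and a line at each group's mean. The NHD13 and wild type points separate for Ndrg1 and Egln3 and overlap for the other 13 genes.

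The transporters did not pass. Slc2a1, the GLUT1 glucose transporter, measured 7.11, 6.72 and 7.93 in NHD13 cells, against 7.99, 7.54 and 7.88 in wild type cells. NHD13 replicate 3 lay within the wild type range and the other NHD13 arrays below it (difference -0.55 ± 0.32, SE, limma adjusted p = 0.70). Slc2a3, the high-affinity GLUT3, measured 0.18 higher. Slc16a3, the lactate exporter MCT4, was detected on 2 NHD13 arrays and 1 wild type array, near the background.

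Of 18 glycolytic enzymes 12 were tested. Limma called none, against 0.556% of all tested genes, and none reached an unadjusted p under 0.05, against 7.67%. At such shares a count of none among 12 genes says little. The median difference of the tested enzymes was -0.07, with 4 above and 8 below 0. Hk2, Gpi1 and Eno1 had no probe annotated with their symbol and are not analysed here. Aldoc, Eno2 and Ldhb, the isoforms better known from brain or heart, were detected on at most 1 array each and were not tested.

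Several enzymes measured nearly alike in the genotypes. Ldha, lactate dehydrogenase A, measured 13.46, 13.82 and 13.39 in NHD13 and 13.43, 13.63 and 13.48 in wild type cells, a difference of 0.04 with a 95% interval of -0.37 to 0.45. Gapdh, which oxidises glyceraldehyde phosphate, averaged 13.37 ± 0.23 in NHD13 and 13.35 ± 0.16 in wild type cells (SD, n = 3 each). The differences of Tpi1, triose phosphate isomerase, and Aldoa, the main aldolase, were -0.02 and -0.05, and that of Pfkl, the liver-type phosphofructokinase, was -0.08. The 95% intervals of these 5 genes lay within a change of 2-fold either way, as did those of 18 of the 30 tested genes. Among the 18 were Egln1, Vhl and Slc16a3, which lay near the background, so their intervals do not bound a change. Pgk1, phosphoglycerate kinase, differed by -0.31 and Pfkp, the platelet-type phosphofructokinase, by -0.32. Abundant enzymes such as Gapdh have many processed pseudogenes in the mouse genome, and whether these probes also read such copies is not known here.

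Pfkm, the muscle-type phosphofructokinase, measured 11.99, 12.28 and 11.59 in NHD13 cells, against 11.31, 11.93 and 11.14 in wild type cells. The groups overlapped, yet every pair of one number was higher in NHD13, by 0.34 to 0.68. All 3 probes of the gene gave like differences, 0.49, 0.46 and 0.51, and none passed (adjusted p = 0.70 for the brightest). Hk1, the hexokinase of most tissues, measured 8.35, 8.37 and 8.03 in NHD13 and 7.98, 8.42 and 7.33 in wild type cells, a difference of 0.34. Its dimmer probe, detected on 5 arrays, differed by -0.60.

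**Figure D3:**
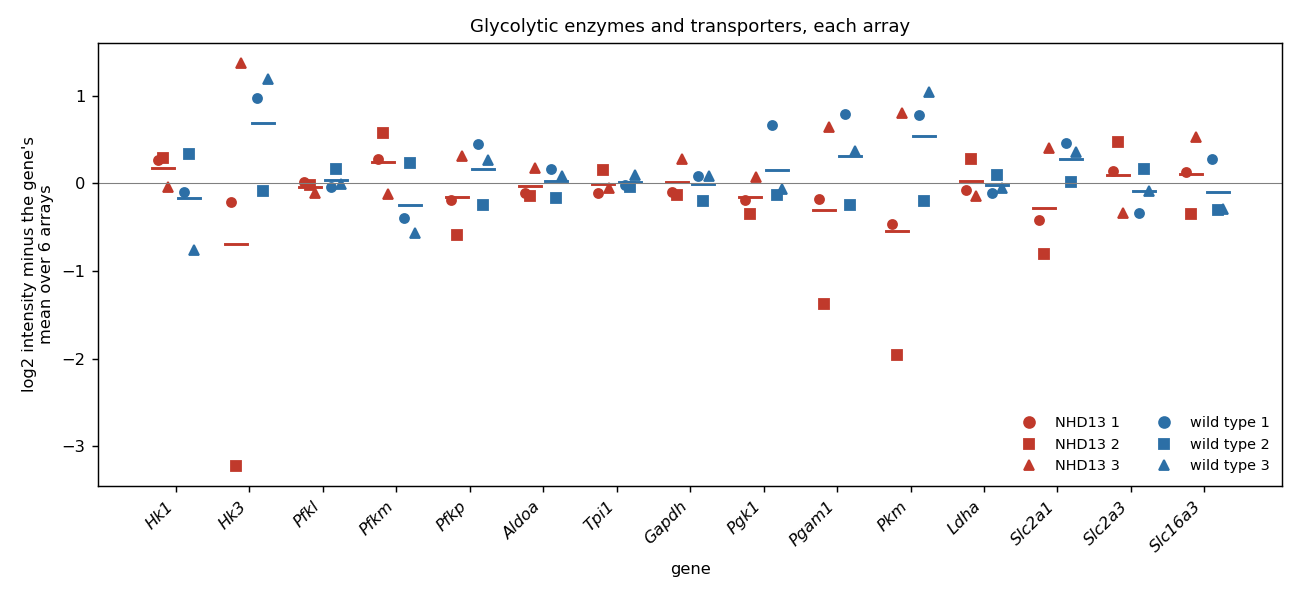
Values of the 12 tested glycolytic enzymes and 3 transporters on each array, as log2 intensity minus the gene's mean over the 6 arrays, with NHD13 in red left of wild type in blue and a line at each group's mean. Hk3, Pgam1 and Pkm spread most within NHD13, with replicate 2 lowest, while Tpi1, Gapdh and Ldha stay close to 0 on every array.

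The widest differences among the enzymes were those of Hk3, Pkm and Pgam1. They were smaller without the arrays numbered 2 and larger without NHD13 replicate 3, at -2.41, -1.75 and -1.09 in that order. Hk3, a hexokinase found mainly in myeloid cells, measured 10.64, 7.63 and 12.22 in NHD13 cells, against 11.82, 10.76 and 12.04 in wild type cells. Its difference was -1.37 ± 1.08 (SE, limma adjusted p = 0.76), -0.11 without NHD13 replicate 2 and -0.50 without both arrays numbered 2. Pkm, which makes pyruvate in the last step, measured 11.45, 9.96 and 12.71 in NHD13, against 12.69, 11.71 and 12.95 in wild type cells. Its difference was -1.08 ± 0.68, -0.37 without NHD13 replicate 2 and -0.74 without both arrays numbered 2, and every pair of one number was lower in NHD13, by -1.24, -1.75 and -0.25. Pgam1, phosphoglycerate mutase, measured 9.22, 8.03 and 10.04 in NHD13, against 10.20, 9.16 and 9.78 in wild type cells, a difference of -0.61 ± 0.52, of -0.08 without NHD13 replicate 2 and of -0.36 without both arrays numbered 2. In these 3 genes and in Slc2a1, NHD13 replicates 1 and 2 and wild type replicate 2 gave the 3 lowest values.

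Markers of granulocyte-monocyte progenitors followed the same arrays on average, although Mpo was not low on NHD13 replicate 1 (15.49). All 12 listed markers, among them Mpo and Elane, were tested, lay below 0 and were not called, with a median difference of -1.05. Their mean, relative to the 6 arrays, was -0.00098, -2.43 and 0.89 on the NHD13 arrays and 0.91, -0.35 and 0.98 on the wild type arrays. Their summed normalized intensity ranged from 21989 to 187843 in NHD13 and from 100265 to 192345 in wild type cells. Hif3a and Pfkm ran the other way, with their 3 highest values on NHD13 replicates 1 and 2 and wild type replicate 2. The Ndrg1 difference was -1.77 without NHD13 replicate 2. The part of cell composition in any of these differences, that of Ndrg1 included, was not tested, and in pooled sorted cells fewer cells of a type and less RNA per cell cannot be told apart.

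**Figure D4:**
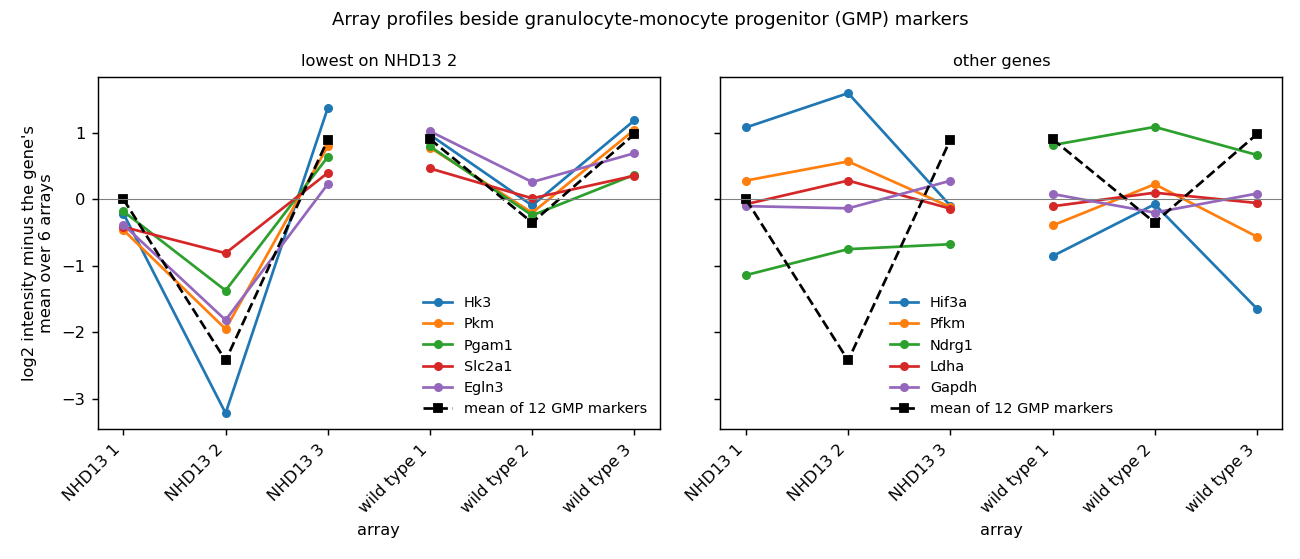
Log2 intensity minus the gene's mean over the 6 arrays for 5 genes per panel, in NHD13 arrays 1 to 3 followed by wild type arrays 1 to 3, with the mean of 12 granulocyte-monocyte progenitor (GMP) markers as a dashed black line. Hk3, Pkm, Pgam1, Slc2a1 and Egln3 share the low value of NHD13 replicate 2 with the markers, whereas Hif3a is highest there and Ndrg1 separates by genotype.

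All 15 tested erythroid markers lay above 0 with a median of 0.47 and none was called. Their mean was higher on every NHD13 array, at 0.68, 0.09 and -0.09, than on any wild type array, at -0.18, -0.24 and -0.27, and their summed intensity ranged from 64137 to 93652 in NHD13 and from 60006 to 71726 in wild type cells. Mast cell and basophil markers lay below 0 in 8 of 8, with sums of 3601 to 13035 in NHD13 and 8098 to 18394 in wild type cells. Their array means were lower in NHD13 in all 3 pairs of one number but overlapped, at -1.06, -1.61 and 0.18 in NHD13 and 1.19, -0.30 and 1.61 in wild type cells. Monocyte and macrophage markers lay below 0 in 7 of 7 and maturing neutrophil markers in 8 of 9, with 0 called. With the replicate number as a block, the monocyte and macrophage marker H2-Ab1 (-1.36) passed with a limma adjusted p of 0.047. The 6 megakaryocyte markers had a median of 0.03, with 4 above and 2 below 0. The lowest was Mmrn1, at -1.80 (limma adjusted p = 0.17, and 0.052 with the replicate number as a block). The 3 tested B cell markers had a median of -0.26. Of the LK identity genes, Cd34 had means of 6.05 on NHD13 and 7.78 on wild type arrays (limma adjusted p = 0.46). Flt3 and Ptprc of that list were not detected on enough arrays to be tested. The part of any of these lists in the results was not tested. Of the stromal and endothelial list, Pecam1, which blood cells also express, averaged 7.35 in NHD13 and 8.39 in wild type cells (limma adjusted p = 0.69), and Lepr differed by -0.45. Of the T and NK cell list, Nkg7 averaged 11.83 in NHD13 and 12.70 in wild type cells (limma adjusted p = 0.76), and Cd3e differed by -0.17. The other stromal and endothelial markers Col1a1, Col1a2, Sparc, Cxcl12 and Cdh5 and the other T and NK cell markers Cd3d, Cd4, Cd8a and Klrb1c were not detected on enough arrays to be tested. The 6 tested proliferation genes had a median of 0.09, with 0 called, and Ccnb2 and Ccna2 were not detected on enough arrays. Groups did not overlap in 12.5% of all tested genes. In these lists they did not overlap for Tspan33 and Mcm2, higher in NHD13, and for H2-Ab1, Cx3cr1, Fcer1a, Il4, Mmrn1 and Cd34, lower.

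Members of one gene family were then compared within each array, so that a change of one relative to another could be read. In 8 such pairs, an exact two-sided permutation test over arrays, which cannot go below p = 0.10, gave adjusted p values from 0.48 to 0.80. For the pairs that hold Egln1 or Egln3 no size is given, because neither probe was detected on all 6 arrays. The phosphofructokinase Pfkl relative to Pfkm differed by -0.57 ± 0.25 between NHD13 and wild type cells (exact p = 0.20, adjusted p = 0.48). Hk1 relative to Hk3 differed by 1.72 ± 1.595, by 0.39 without NHD13 replicate 2, by 1.03 without both arrays numbered 2 and by 2.85 without NHD13 replicate 3.

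Further genes around the pathway did not pass either. Of 13 tested genes of sugar transport, glycogen and glycolytic control, such as Pfkfb4 and Pygl, 5 lay above and 8 below 0 with a median of -0.09. Of 7 of the pyruvate dehydrogenase complex and its kinases and phosphatases, the phosphatase gene Pdp2 did not overlap between groups and differed by -0.26 (limma adjusted p = 0.72), and the median was 0.19. In the pentose phosphate pathway, which branches off after hexokinase, Rpe measured 6.99, 6.73 and 7.66 in NHD13, against 7.76, 7.67 and 7.76 in wild type cells, a difference of -0.61 (limma adjusted p = 0.64). H6pd differed by -0.32 without overlap, and the median of the 6 tested genes was -0.0037. The 14 other genes of the HIF machinery, such as Cul2 and Ep300, had a median of 0.07 and the 20 other HIF targets, such as Mif and Kdm3a, one of -0.05. Limma called 0 in each of these 5 lists, against 0.556% of all tested genes. At an unadjusted p under 0.05 there were 3 genes in all, where 7.67% of all tested genes reached that level. They were Slc2a8 (0.70), Rpe and Ak4 (-1.01), named after their values were seen.

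**Figure D5:**
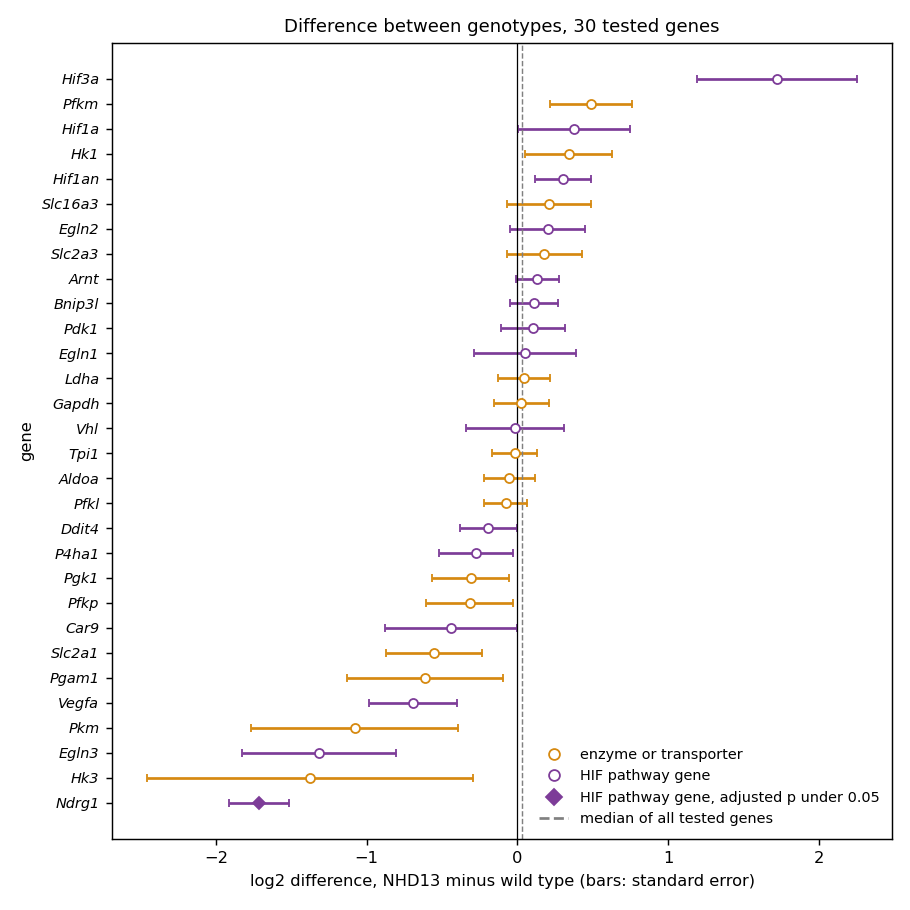
Log2 difference of NHD13 minus wild type for the 30 tested genes, with standard errors from limma, enzymes and transporters in orange, HIF pathway genes in purple and a dashed line at the median of all tested genes. Ndrg1 at -1.71, the filled diamond, passed the adjusted threshold, and 13 of the 30 genes lie within 0.2 of 0.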

How the data were processed

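Per the file headers, the deposited table gives each probe's mean bead intensity, bead number, bead standard error and detection p-value, neither normalized nor background-subtracted. The authors' own processed intensity values, also deposited, served as an alternative. The scanner software is not given in the sources used here. Total RNA was labelled with biotin, per the labels' protocols.

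The intensities were normalized with neqc of limma 3.58.1 in R 4.3.3 (offset 16, quantile normalization, log2). A probe was tested if 3 or more of the 6 arrays had its detection p-value below 0.05, which left 16518 of 45281. They were tested two-sided with lmFit and eBayes, adjusted by Benjamini-Hochberg over all of them. The arrays detected 15983 to 16836 probes each. Their number, 3 per genotype, limits the precision. The fit was tested on simulated data. Symbols came from the platform annotation, and promoters from RefSeq (GRCm38.p6). List names Emr1 and Ero1l were read as Adgre1 and Ero1a.

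The 39 genes and all lists were chosen with earlier results of these data known. Among the 39 genes, values on every array are given for those that passed or did not overlap. The same holds for the 6 largest differences of the enzymes and transporters and of the HIF genes. Where tested, Hif1a, Epas1, Vhl, Egln1, Ldha, Slc2a1 and Pdk1 are given likewise. Other genes were named by role, by p-value or for groups without overlap, mostly without array values. Equal replicate numbers were taken as pairs because deviations from the group means correlated at 0.19, 0.67 and 0.54 in the arrays numbered 1, 2 and 3, although one pair of unequal number reached 0.24; the labels do not say what a number shares. The alternatives were other background corrections, scalings, detection filters, variance models, weights and probe choices, the replicate block, and arrays left out.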

Additional observations from a re-analysis of the deposited data

How the results depend on the processing

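Across 19 alternatives no glycolytic enzyme or transporter was called, and the enzymes' median ranged from -0.17 to -0.05. Ndrg1 was lower in all 19, between -1.92 and -1.25, and passed in 12 (adjusted p from 0.0022 to 0.17). The HIF pathway genes called were 2 with the replicate block (Ndrg1 and Hif3a), 3 with array weights (Ndrg1, Hif3a and Vegfa; NHD13 replicate 1 then weighed 5.02 and the others 0.35 to 1.55), 0 without both arrays numbered 2, 0 with the dimmest probe of each gene, and 0 to 1 without 1 array; the block changed no other call among the 30 genes. Their median was -0.055 to 0.14 without 1 array. Over the whole array, 50 genes were called, against 27 without background correction, 6 with detection on all 6 arrays, 342 with array weights, 16 without both arrays numbered 2, and 1 to 61 without 1 array (16 without NHD13 replicate 1, 1, 24 and 4 without wild type replicates 1, 2 and 3). The cause was not tested. Of the calls 36% were higher in NHD13, 48.1% without background correction, 50% with detection on all 6 arrays or without both arrays numbered 2, and 0% to 75% without 1 array (75% without NHD13 replicate 1 or wild type replicate 3, 0% without wild type replicate 1). Of the 30 genes, 15 kept their sign in every alternative that tested them. Genes near background, such as Hif1a, Egln1, Vhl and Slc16a3, have no usable level.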

Other observations

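Probes of one gene gave unlike differences in several places. For Hif3a the brightest probe differed by 1.72 between NHD13 and wild type cells. The others, close to the background, differed by 0.14 and -0.12. For Pfkl a dimmer probe differed by 0.70 (adjusted p = 0.60) where the brightest gave -0.08, and the dimmest of 3 Tpi1 probes differed by 0.53 (adjusted p = 0.69) where the others gave -0.02 and -0.07. For Hk1 the probes gave 0.34 and -0.60. The dimmer probes of Pfkl and Hk1 were each detected on 5 arrays. What these probes read differently was not tested. The tested probes of Ndrg1, Pfkm, Pfkp and Vegfa did agree in sign and roughly in size, but the second Vegfa probe was detected on only 3 arrays.

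The 3 arrays with the lowest Hk3, Pkm, Pgam1 and Slc2a1 values (NHD13 replicates 1 and 2 and wild type replicate 2) were also those below 0 on the first principal component of all tested probes, at -22.9, -68.5 and -15.6, against 25.9 for NHD13 replicate 3 and 33.7 and 47.5 for wild type replicates 1 and 3. The genotypes overlapped on this component.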
